A study of Mus musculus with 8 samples.

Results

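The 9 genes described here take up lipoproteins, move cholesterol out of lysosomes and export it from the cell: the liver X receptors Nr1h2 and Nr1h3, the sterol transporters Abca1 and Abcg1, the ubiquitin ligase gene Mylip, the apolipoprotein gene Apoe, the lipoprotein receptor gene Lrp1, and Npc1 and Npc2. They were taken by gene symbol from the 55335 genes in the tables, with earlier results of these data known. All 9 passed the minimum of 5 CPM (scaled counts per 1000000) used to call a gene measured. RNA came from CD8 T cells sorted from B16 melanomas, 14 days after the B16 cells were injected intravenously into Cd36 knockout or wild-type C57BL/6 mice. The knockout label names no promoter or Cre, and nothing in the labels gives the number of mice behind each library. The 4 knockout samples (CD36_KO) and the 4 wild-type samples (WT) carry lane numbers 1 to 4 and 1 library number per genotype in their titles, so each genotype has 1 library and no difference below has a replicate check. The 95% intervals hold counting error alone and count each read as a separate molecule, which reads without molecular identifiers are not.

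Liver X receptors (LXRs) are nuclear receptors that bind oxysterols, oxidised forms of cholesterol, and act with retinoid X receptors on DNA. When cholesterol builds up in a cell, they raise transcription of Abca1 and Abcg1, whose products pass cholesterol to apolipoproteins and lipoprotein particles, of Apoe, and of Mylip, whose product IDOL marks lipoprotein receptors for degradation. Cholesterol that enters by endocytosis through receptors such as LRP1 leaves the lysosome through NPC2, which binds it in the lumen, and NPC1, which carries it across the membrane. In tumours this programme is best known from macrophages, and in T cells LXR activity is known to restrain proliferation.

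The promoters of Abca1 and Mylip are shown because both genes are LXR targets and their ratios between the libraries differed most among the 3 LXR-regulated sterol disposal genes Abca1, Abcg1 and Mylip. The sequences are the 250 bases upstream of the RefSeq start site (build GRCm38.p6), Abca1 at chr4:53159896-53160145 on the minus strand and Mylip at chr13:45389492-45389741 on the plus strand. Capitals mark TATAAAA and, in Abca1, the stretch closest to the LXR direct repeat, which is AGGTCA, any 4 bases and AGGTCA again.
Abca1: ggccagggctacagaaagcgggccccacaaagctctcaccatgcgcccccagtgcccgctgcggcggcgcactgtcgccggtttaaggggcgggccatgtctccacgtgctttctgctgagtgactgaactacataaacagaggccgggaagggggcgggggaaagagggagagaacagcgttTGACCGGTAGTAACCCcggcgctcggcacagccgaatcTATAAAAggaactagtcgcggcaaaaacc
Mylip: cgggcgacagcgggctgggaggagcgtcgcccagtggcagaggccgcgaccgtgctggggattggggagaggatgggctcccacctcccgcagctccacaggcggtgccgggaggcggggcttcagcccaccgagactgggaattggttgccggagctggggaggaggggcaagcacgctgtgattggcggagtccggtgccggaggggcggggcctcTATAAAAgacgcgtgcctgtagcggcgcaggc
Both strands were searched. The Abca1 stretch lies 67 to 52 bases upstream of the start and reads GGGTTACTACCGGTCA on the opposite strand. It differs from the repeat at 3 of the 12 scored letters, and 18.5% of the 32851 windows of the same length hold a stretch at least as close. The Mylip window had no stretch within 3 mismatches. TATAAAA stands 29 bases upstream in Abca1 and 32 in Mylip, and occurs in 4.98% of windows. RefSeq windows matched 7 of the 9 genes, and Abcg1 was not among them. A match is a description of letters and not of binding.

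Marker genes of several cell types differed in level between the libraries. The lanes held 2569962 to 2611740 estimated counts in CD36_KO and 2497048 to 2538468 in WT, with library totals of 10363391 and 10071960. Cd36 had 358 counts in the CD36_KO library and 1194 in the WT library, a log2 ratio of -1.98 (95% counting interval -2.15 to -1.80). Which stretch of Cd36 was deleted is not stated, so the remaining counts cannot be placed inside or outside it. All 12 CD8 T cell markers were at least 2-fold higher in CD36_KO, and their summed level was 1088 to 1130 CPM per lane in CD36_KO and 329 to 339 CPM in WT. Melanoma markers, such as the pigment enzyme gene Tyr (-2.40), were at least 2-fold lower for 13 of 14, with sums of 1482 to 1535 CPM in CD36_KO and 5890 to 6127 CPM in WT. Macrophage and monocyte markers were the most abundant of these lists, with sums of 4296 to 4344 CPM in CD36_KO and 6408 to 6478 CPM in WT. Of 17 macrophage markers 5 were lower, 1 was higher and 11 lay between, and in TPM 1 was past 2-fold lower and 2 higher. Hepatocyte markers were higher for 18 of 19 measured, with sums of 1441 to 1503 CPM in CD36_KO and 512 to 554 CPM in WT. No marker in these 4 lists was at 0 counts in either library. The labelled CD8 T cells were thus represented by all their markers, but macrophage markers summed to more CPM than T cell markers in every lane of both libraries. Much of that sum was the lysozyme gene Lyz2, at 2556 CPM in CD36_KO and 3284 CPM in WT. In TPM, Lyz2 stood at 1520 and 1316, and T cell markers summed to 752 and 153. Without Lyz2, macrophage markers held less TPM than T cell markers in CD36_KO, though not in WT. In bulk RNA, fewer cells of a type and less RNA per cell cannot be told apart, and the part that cell content plays in the ratios of the 9 genes was not tested.

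None of the 9 genes reached a 2-fold difference on the main scale, counts scaled by TMM, a composition correction. Lrp1, Abca1, Npc1 and Nr1h2 stood at 0.621 to 0.708 of their WT level in CD36_KO, Npc2 and Nr1h3 were lower by less, Apoe was close to equal, Abcg1 was slightly higher and Mylip was 1.88-fold higher. The rule for at least 2-fold higher or lower, with an interval that excludes no difference, called 0 of the 9 genes higher, against 6.5% of 12177 measured genes, and 0 lower, against 10.8%. The interval lay above 0 for Mylip and Abcg1, below 0 for 6 genes, and spanned 0 for Nr1h3. The share of all measured genes with such intervals was not counted, so this tally describes the 9 genes only. All CD36_KO lanes stood above all WT lanes for 2 of the 9 genes, against 19.6% of measured genes, and below them for 6, against 33.3%. With TPM the tally was 4 above, against 40.8%, none below, against 8.7%, and 5 overlapping. The median log2 ratio was -0.30 over the 9 genes and -0.13 over all measured genes.

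**Figure D1:**
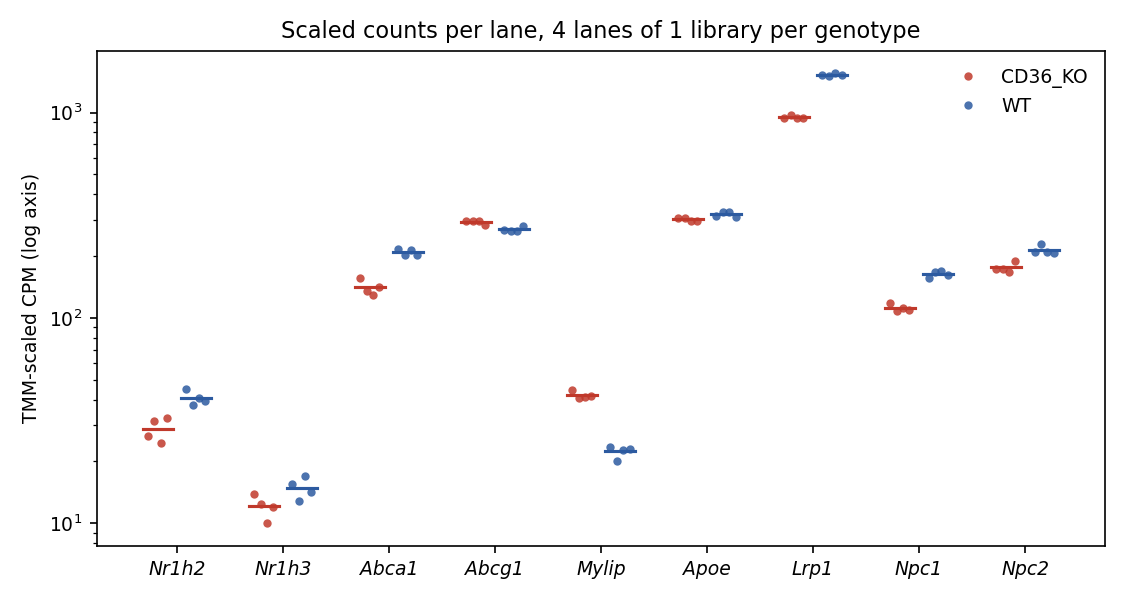
TMM-scaled CPM on a log axis for each of the 9 genes in each lane (points; bars are means over the 4 lanes of 1 library), CD36_KO left of WT. Lanes of the 2 libraries overlap for Nr1h3 only; Mylip and Abcg1 are higher in all CD36_KO lanes, and levels of different genes are not comparable because CPM is not corrected for length.

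The scale matters for several directions. Over all 12177 genes the middle log2 ratio was -0.13 for TMM, 0.06 for total counts and 0.37 for TPM (transcripts per 1000000, which corrects for transcript length), so total counts differ from TMM by 0.20 for every gene, while TPM differs from TMM by 0.50 at the medians and by amounts that vary between genes. The calls over all genes split into 792 higher and 1314 lower with TMM, and 1501 higher and 329 lower with TPM. Mylip and Abcg1 were higher in CD36_KO on all 3 scales, and Lrp1 was lower. Abca1 was lower with TMM and total counts and near equal with TPM (-0.01). Nr1h2, Nr1h3, Npc1 and Npc2 were lower with TMM and total counts and higher with TPM, and Apoe was lower with TMM only. With TPM recomputed over protein-coding transcripts alone, Nr1h2 (-0.26), Nr1h3 (-0.29), Npc1 (-0.43) and Npc2 (-0.14) were again lower, and Apoe (0.30) was higher. The all-gene median was then 0, and protein-coding transcripts held 20% of all TPM in CD36_KO and 15.4% in WT. Set against that middle value, the directions were the same with TMM and TPM. Mylip (1.04 with TMM and 0.97 with TPM), Abcg1 (0.25 and 0.32) and Apoe (0.05 and 0.04) lay above that median, and the other 6 genes below it.

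**Figure D2:**
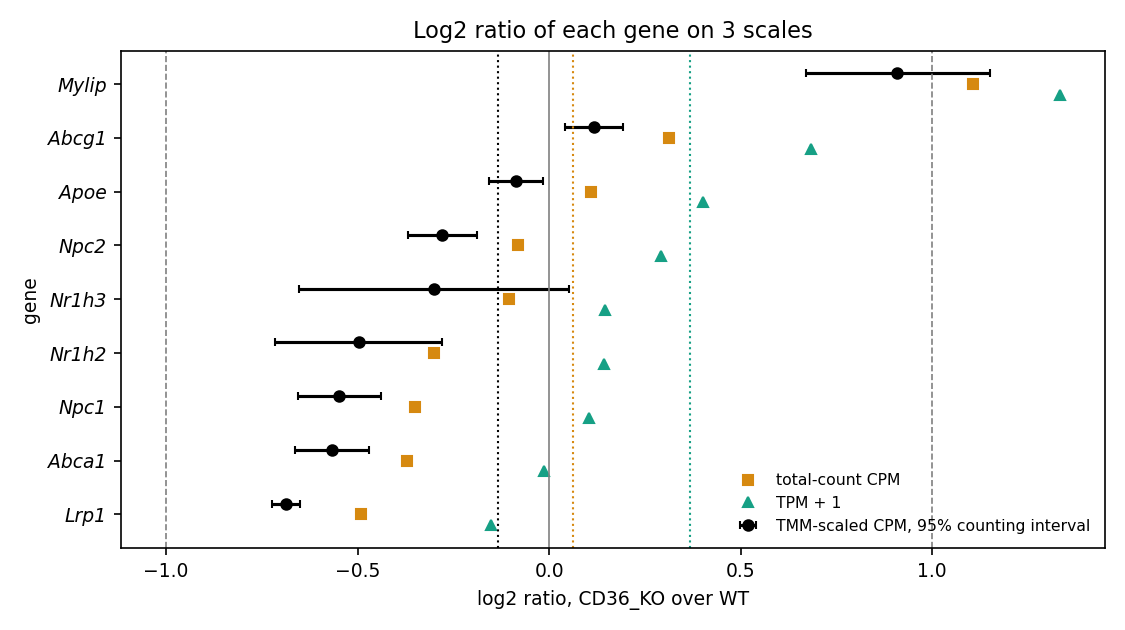
Log2 ratio of CD36_KO over WT for the 9 genes with TMM-scaled CPM (circles, with 95% counting intervals), total-count CPM (squares) and TPM + 1 (triangles). Dotted lines give the median of all measured genes on each scale (-0.13, 0.06 and 0.37) and dashed lines 2-fold; Mylip is the highest gene and Lrp1 the lowest on every scale.

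The LXR genes themselves were among the less abundant of the 9 genes per length. Nr1h2 (ENSMUSG00000060601.13; GRCm38 chromosome 7, 44549616 to 44553951), which encodes the broadly expressed LXR beta, had 74, 87, 69 and 90 counts in the CD36_KO lanes and 107, 88, 96 and 92 in the WT lanes. Its scaled level was 28.9 ± 3.9 CPM in CD36_KO and 40.7 ± 3.18 CPM in WT (SD over 4 lanes of 1 library, as for every ± below), a log2 ratio of -0.50 (interval -0.72 to -0.28). The scaled lanes did not overlap, while on the TPM scale they did, at 15.7 ± 0.888 TPM in CD36_KO and 14.1 ± 2.32 TPM in WT. Nr1h3 (ENSMUSG00000002108.10; chromosome 2, 91184061 to 91202834), which encodes LXR alpha, the form known from macrophages, liver and fat, had 39, 34, 28 and 33 counts in the CD36_KO lanes and 37, 30, 40 and 33 in the WT lanes. Lanes of the libraries overlapped and the log2 ratio of -0.30 had an interval of -0.65 to 0.05, so no difference was detectable at this depth. The share of Nr1h3 relative to Nr1h2 was also not distinguishable: the count ratio of Nr1h3 to Nr1h2 was 0.419 in CD36_KO and 0.366 in WT, which is 1.15-fold (interval 0.858 to 1.53).

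The LXR target genes did not share a direction. Abca1 (ENSMUSG00000015243.4; chromosome 4, 53030787 to 53159895), whose transporter loads cholesterol onto lipid-poor apolipoprotein, had 438, 372, 363 and 390 counts in the CD36_KO lanes and 512, 473, 507 and 472 in the WT lanes. All CD36_KO lanes were below all WT lanes, and the scaled level was 141 ± 11.6 CPM in CD36_KO and 209 ± 7.38 CPM in WT, a log2 ratio of -0.57 (interval -0.66 to -0.47). On the TPM scale the lanes overlapped, at 9.84 ± 1.22 TPM in CD36_KO and 9.95 ± 0.653 TPM in WT. Abcg1 (ENSMUSG00000024030.7; chromosome 17, 31057675 to 31117988), whose transporter passes cholesterol to mature high-density lipoprotein and is also known to limit T cell proliferation, had 824.6, 811.6, 825.1 and 783.4 counts in the CD36_KO lanes and 635.6, 617.3, 627.7 and 656.5 in the WT lanes. All CD36_KO lanes were above all WT lanes, by little: 292 ± 5.18 CPM in CD36_KO and 270 ± 7.6 CPM in WT, a log2 ratio of 0.12 (interval 0.04 to 0.19). On the TPM scale Abcg1 stood at 60.5 ± 8.89 TPM in CD36_KO and 37.3 ± 1.73 TPM in WT, again with no overlap.

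Comparing the transporters within a library removes the scaling. The count ratio of Abcg1 to Abca1 was 2.08 in CD36_KO and 1.29 in WT, a 1.61-fold higher ratio in CD36_KO (interval 1.48 to 1.75), and 1.64-fold with TPM. The balance of the pair was thus shifted towards Abcg1 in the CD36_KO library by more than counting error. Relative to the T cell marker Cd8a, the Abcg1 count ratio was 0.289 of its WT value (0.259 to 0.323). Relative to Lyz2, the Abca1 count ratio was 0.867 of its WT value (0.809 to 0.929). Whether cell content bears on the shift of the pair was not tested.

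Mylip had the highest ratio of the 9 genes. Mylip (ENSMUSG00000038175.10; chromosome 13, 45389742 to 45412022) had 124, 111.8, 115.7 and 115 counts in the CD36_KO lanes and 56, 47, 54 and 54 in the WT lanes. The lanes lay far apart, and the scaled level was 42.0 ± 1.61 CPM in CD36_KO and 22.4 ± 1.55 CPM in WT, a log2 ratio of 0.91 (interval 0.67 to 1.15). Of all measured genes 92.6% had a lower log2 ratio. The 2-fold line fell inside the interval, and Mylip passed the rule with total counts (1.11). It was also past 2-fold with TPM, for which no interval is given (1.33, at 11.1 ± 0.4 TPM in CD36_KO and 3.79 ± 0.118 TPM in WT). With TPM it was the 1 gene of the 9 at least 2-fold higher, against 12.3% of measured genes, and 0 were lower, against 2.7%. Relative to the other genes the direction was free of scaling. The count ratio of Mylip to Abca1 was 2.78-fold higher in CD36_KO (interval 2.33 to 3.33), that of Mylip to Abcg1 1.73-fold (1.46 to 2.06) and that of Mylip to Apoe 1.99-fold (1.68 to 2.37). Beside the T cell marker Cd8a, which had 2307 counts in CD36_KO and 522 in WT, the direction was the other way: the ratio of Mylip to Cd8a was 0.501 of its WT value (0.413 to 0.608). Whether the T cell content bears on the Mylip ratio was not tested. Among list genes that averaged 20 CPM or more, those nearest to Mylip in log2 ratio, over these 2 libraries, were the monocyte receptor gene Ccr2 (0.92) and the haptoglobin gene Hp (1.04).

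Apoe, the main apolipoprotein of macrophages and a ligand of LRP1, was the most abundant of the 9 genes per length. Apoe (ENSMUSG00000002985.16; chromosome 7, 19696109 to 19699188) had 861, 846, 828 and 818 counts in the CD36_KO lanes and 747, 768, 776 and 728 in the WT lanes. After TMM scaling all CD36_KO lanes were below all WT lanes, at 302 ± 6.37 CPM in CD36_KO and 321 ± 8.98 CPM in WT (log2 ratio -0.09, interval -0.16 to -0.02). On the TPM scale all CD36_KO lanes were above, at 233 ± 2.87 TPM in CD36_KO and 176 ± 8.99 TPM in WT. The direction of Apoe thus turned with the scale. Beside Lyz2, the macrophage lysozyme gene, with 28365 counts in CD36_KO and 30896 in WT, the count ratio of Apoe was 1.21-fold higher in CD36_KO (1.15 to 1.27). Hepatocytes also express Apoe, and the hepatocyte marker sums given above were higher in CD36_KO; their part in the level of Apoe was not tested.

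Lrp1 had the lowest ratio of the 9 genes. Lrp1 (ENSMUSG00000040249.15; chromosome 10, 127538161 to 127621148), a large endocytic receptor of macrophages, fibroblasts and hepatocytes, had 2643, 2669, 2627 and 2581 counts in the CD36_KO lanes and 3599, 3534, 3678 and 3554 in the WT lanes. The scaled lanes were far apart, at 948 ± 14.9 CPM in CD36_KO and 1527 ± 18.1 CPM in WT, a log2 ratio of -0.69 (interval -0.72 to -0.65), and 19.1% of measured genes had a lower ratio. On the TPM scale the lanes overlapped, at 52.2 ± 3.07 TPM in CD36_KO and 58.1 ± 4.71 TPM in WT. The count ratio of Apoe to its receptor gene Lrp1 was 1.52-fold higher in CD36_KO (1.44 to 1.60). Lrp1 was also lower beside Lyz2, at 0.798 of the WT count ratio (0.774 to 0.822). Fibroblast and pericyte markers, which include cells rich in Lrp1, were lower for 5 of 8 measured genes, higher for 1 (Thy1, which T cells also express) and between for 2, and in TPM 3 were past 2-fold lower. Their sums were 410 to 423 CPM in CD36_KO and 1209 to 1254 CPM in WT, and no marker of that list was at 0. Hepatocyte markers went the other way, higher for 18 of 19 measured, and of 17 macrophage markers 5 were lower and 1 was higher. The part of these cell types in the Lrp1 ratio was not tested. By the same choice the genes nearest to Lrp1 were Srebf2 (-0.69), the regulator of sterol synthesis, and Scarb1 (-0.67), a high-density lipoprotein receptor.

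The lysosomal cholesterol exporters were both lower on the main scale, Npc1 by more. Npc1 (ENSMUSG00000024413.14; chromosome 18, 12189692 to 12236400) had 331.4, 298.6, 312.2 and 299.9 counts in the CD36_KO lanes and 372.3, 388.7, 401.2 and 377 in the WT lanes. The lanes did not overlap, and the scaled level was 112 ± 4.62 CPM in CD36_KO and 164 ± 5.56 CPM in WT (log2 ratio -0.55, interval -0.66 to -0.44). Npc1 overlaps Rmc1 on the opposite strand, which had 430 counts in CD36_KO and 323 in WT, and without a stated strand setting reads of their shared stretch cannot be told apart. Npc2 (ENSMUSG00000021242.9; chromosome 12, 84754562 to 84773152) had 486.2, 476.9, 470.2 and 520.3 counts in the CD36_KO lanes and 497.3, 532.9, 494.1 and 485.2 in the WT lanes. Raw lane counts overlapped, and scaled levels did not, at 176 ± 9 CPM in CD36_KO and 214 ± 9.93 CPM in WT (-0.28, -0.37 to -0.19). With total counts the Npc2 interval spanned no difference (-0.08, -0.17 to 0.01), and in TPM all CD36_KO lanes were above all WT lanes, at 42.6 ± 2.46 TPM in CD36_KO and 34.6 ± 1.41 TPM in WT. The direction of Npc2 thus turned with the scale. The count ratio of Npc1 to Npc2 was 0.636 in CD36_KO and 0.766 in WT, 0.83 of the WT value (0.752 to 0.916).

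**Figure D3:**
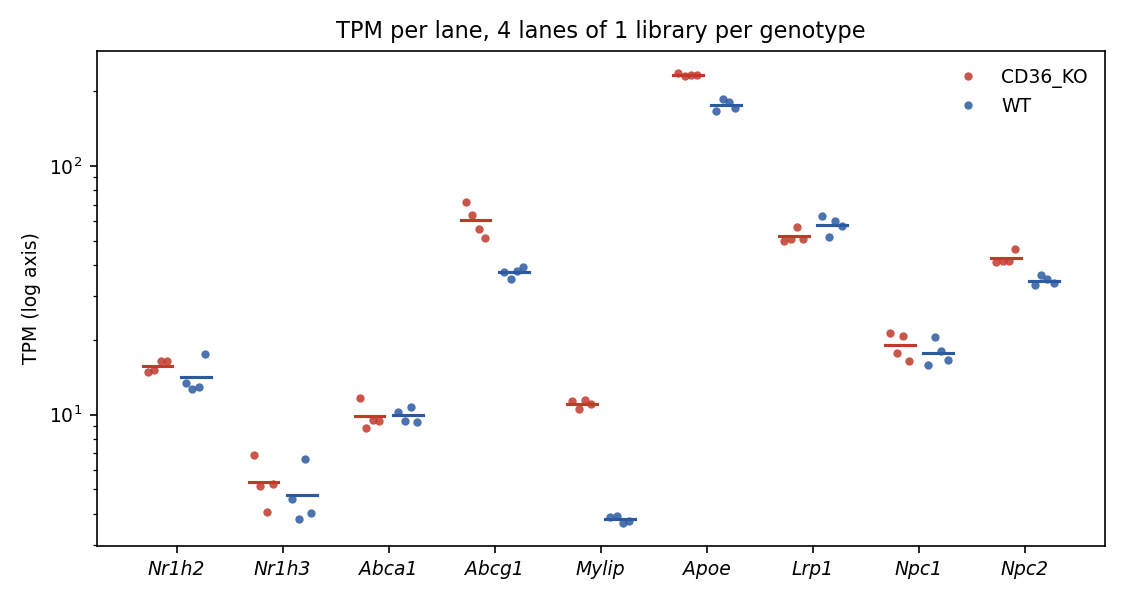
TPM on a log axis for the 9 genes in each lane (points; bars are means over the 4 lanes of 1 library), CD36_KO left of WT. Apoe is the highest gene in both libraries, and Mylip is the lowest in WT but stands above Nr1h3 in CD36_KO.

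Per length, the order of the genes was similar in both libraries apart from Mylip and Abcg1. In the CD36_KO library the order by mean TPM was Apoe, Abcg1 (60.5), Lrp1 (52.2), Npc2 (42.6), Npc1 (19.1), Nr1h2 (15.7), Mylip (11.1), Abca1 (9.84) and Nr1h3 (5.36). The lane ranges of Abcg1 and Lrp1 overlapped there, as did those of Mylip and Abca1. In the WT library the order was Apoe, Lrp1 (58.1), Abcg1 (37.3), Npc2 (34.6), Npc1 (17.7), Nr1h2 (14.1), Abca1 (9.95), Nr1h3 (4.75) and Mylip (3.79). Lane ranges overlapped there for Abcg1 and Npc2, for Npc1 and Nr1h2, and for Nr1h3 and Mylip. Mylip thus stood seventh in CD36_KO and last in WT.

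Transcript estimates add detail for some genes, although kallisto divides reads among overlapping isoforms. The full-length Abcg1-201 of 5832 bases held 88.5% of Abcg1 counts in CD36_KO and 90.1% in WT, so the count total mainly reflects it. Of the Abcg1 TPM it held only 50.6% in CD36_KO and 53.2% in WT. By itself it stood at 29.78 to 31.83 TPM in the CD36_KO lanes and 18.88 to 20.89 TPM in the WT lanes. The rest of the Abcg1 TPM, and its wide spread in CD36_KO, came from short isoforms such as 1 of 912 bases, which ranged from 0.12 to 13.26 TPM over the CD36_KO lanes. For Apoe, the lncRNA-annotated transcript Apoe-202 of 728 bases held 9.4% of counts in CD36_KO and 20.2% in WT, and the coding Apoe-209 of 1104 bases 79.8% and 69.9%. Lane shares of Apoe-202 did not overlap, with a highest value of 10.3% in CD36_KO and a lowest of 17.8% in WT. Mylip-202 of 1954 bases held 21.2% of Mylip counts in CD36_KO and 10.0% in WT, with lane shares up to 31.5% in WT, so the isoforms were not separable. For Nr1h3, Nr1h3-201 held 16.9% of 134 counts in CD36_KO and 79.5% of 140 counts in WT, and Nr1h3-202 held 45.1% and 5.8%. The lane shares of Nr1h3-201 did not overlap (at most 40.4% in CD36_KO, at least 56.8% in WT), but the counts are few and the isoforms share most of their sequence.

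**Figure D4:**
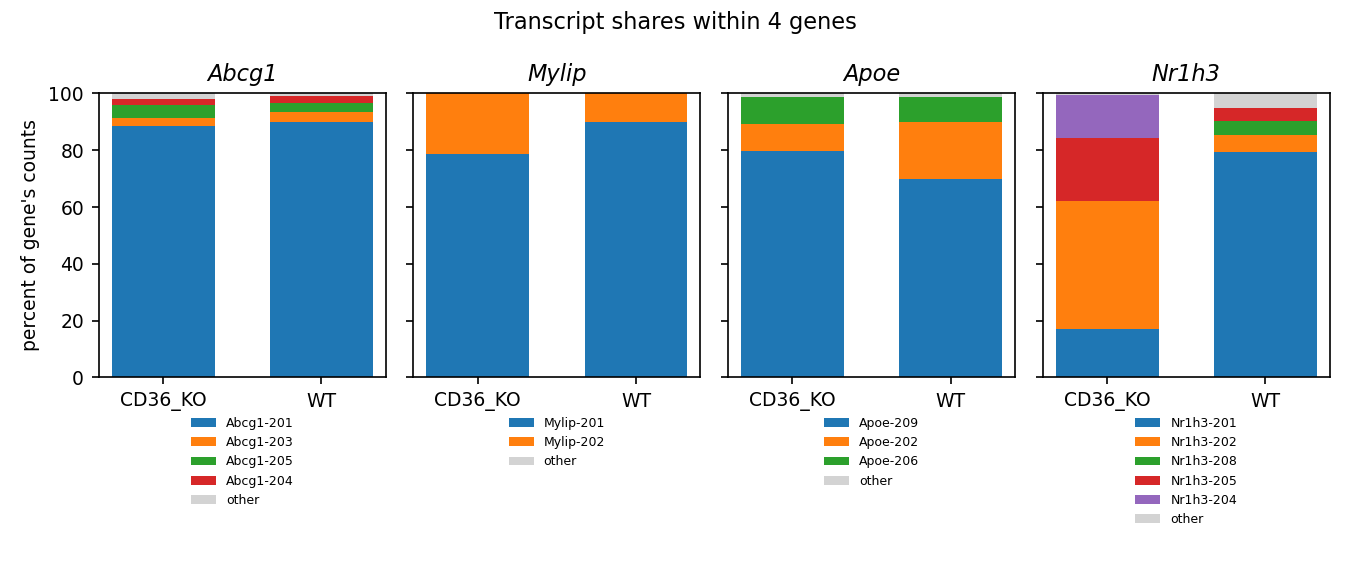
Share of each gene's estimated counts assigned to its transcripts in the CD36_KO (left bar) and WT (right bar) library, for Abcg1, Mylip, Apoe and Nr1h3; grey is the sum of transcripts averaging under 2%. Apoe-202 takes 9.4% in CD36_KO and 20.2% in WT, and Nr1h3-201 takes 16.9% and 79.5%.

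Other LXR target genes lay on both sides and ran from -1.93 to 2.47. Of 16 measured, 3 were at least 2-fold higher, 3 were lower and 10 lay between. Their median was -0.11, and 0.63 in TPM, where 5 were past 2-fold higher and 2 lower. Apoc1, an apolipoprotein gene beside Apoe, had 131 counts in CD36_KO and 20 in WT (2.47, interval 1.79 to 3.23), and Arl4c, a small GTPase gene, 1874 and 545 (1.54, 1.41 to 1.68). The desaturase gene Scd2 had 1229 and 3984 counts (-1.94, -2.03 to -1.84), and Cd5l, a survival factor of macrophages, 1237 and 3738 (-1.83, -1.93 to -1.74). In TPM, Apoc1 (2.83) and Arl4c (1.94) were again higher and Scd2 (-1.34) and Cd5l (-1.26) lower. Whether cell content, such as that of hepatocytes or macrophages, bears on the ratios of these other targets was not tested. LXR partners and coregulators had 0 of 9 genes past 2-fold in either direction (median -0.06, and 0.73 in TPM), with Ncor1, a corepressor, at 0.63 and the partner receptor gene Rxra at -0.40. In TPM, Ncor1 was past 2-fold, at 1.20.

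Among receptors and enzymes around the 9 genes, most lay between the 2-fold lines. Lipoprotein receptor genes numbered 14, of which 1 was higher, 1 was lower and 12 lay between (median -0.70, and -0.08 in TPM). The higher gene was the sorting receptor gene Sorl1, with 2510 counts in CD36_KO and 818 in WT (1.38, and 2.12 in TPM). The lower gene was Lrp2, which encodes megalin, with 99 and 254 counts (-1.60, -1.95 to -1.26), and in TPM it was short of 2-fold (-0.18). Lrp8, which encodes the apolipoprotein E receptor 2 and is a known substrate of IDOL, had 108 counts in CD36_KO and 170 in WT (-0.89, -1.25 to -0.54, and -0.09 in TPM), short of 2-fold. IDOL acts on receptor protein, which these data do not measure. Oxysterol and cholesterol ester enzyme genes had 1 of 5 higher and 1 lower (median -0.52, and 0.24 in TPM). Ch25h, which makes the LXR ligand 25-hydroxycholesterol, had 50 counts in CD36_KO and 112 in WT (-1.40, -1.91 to -0.91), and was short of 2-fold in TPM (-0.64). Cyp27a1, which makes 27-hydroxycholesterol, had 141 and 48 (1.32, 0.83 to 1.82, and 1.62 in TPM). The ester hydrolase gene Nceh1 (-0.60) and the esterifying gene Soat1 (-0.52) lay between.

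Genes for sterol transport inside the cell had 2 of 14 higher, Osbpl5 (1.11) and Gramd1a (1.08), 1 lower, the NPC1-binding gene Tmem97 (-1.14), and 11 between (median -0.20, and 0.30 in TPM). In TPM, Tmem97 was short of 2-fold (-0.49), and 3 genes were past it on the higher side. Cholesterol synthesis genes, which the sterol-sensing SREBP2 system drives, had 5 of 21 lower, none higher and 16 between (median -0.73, and -0.08 in TPM). Fdps (-1.49) and Cyp51 (-1.40) were lowest. In TPM none of the 21 was past 2-fold, with Fdps at -0.84 and Cyp51 at -0.46. Of the other apolipoprotein genes 4 of 5 measured were higher, among them Apob (2.85) and Apoa1 (2.43), and Clu (-0.56) lay between. The 4 higher genes also stand in the hepatocyte list, and the part of cell content in their ratios was not tested.

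**Figure D5:**
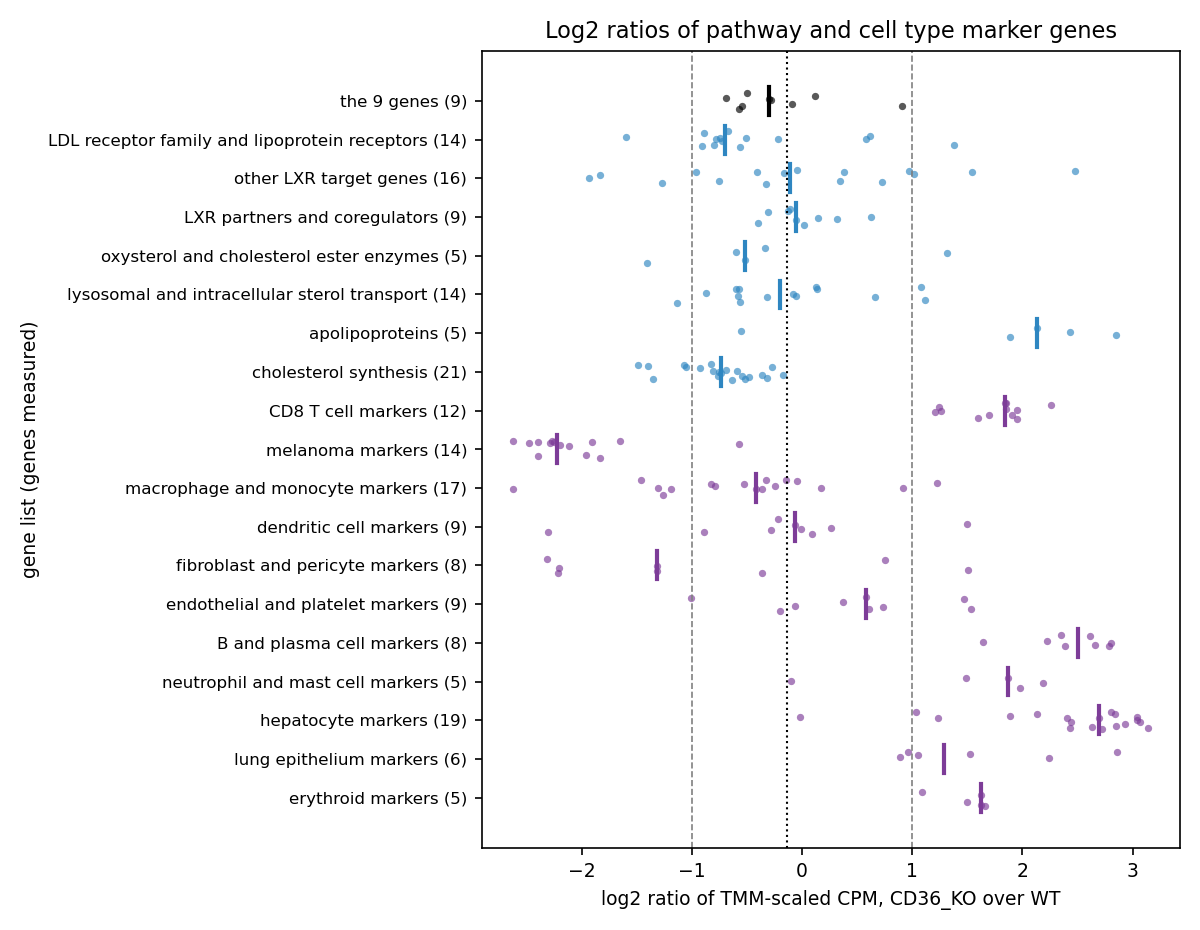
Log2 ratio of TMM-scaled CPM, CD36_KO over WT, for each measured gene (points) of the 9 genes (black), pathway lists (blue) and cell type marker lists (purple), with list medians as bars; the dotted line is the median of all measured genes (-0.13) and dashed lines mark 2-fold. The 9 genes lie between -0.69 and 0.91, inside the spread from the melanoma median of -2.22 to the hepatocyte median of 2.69.

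Markers of other cell types also differed between the libraries, and their part in the ratios of the 9 genes was not tested. Medians were -0.42 for macrophage and monocyte markers (0.05 in TPM), -0.06 for dendritic cell markers (0.24 in TPM), -1.31 for fibroblast and pericyte markers, 0.58 for endothelial and platelet markers, 2.5 for B and plasma cell markers, 1.87 for neutrophil and mast cell markers, 1.29 for lung epithelium markers and 1.62 for erythroid markers. Within the macrophage list the arginase gene Arg1 (-2.62, and -1.99 in TPM) was lower and the monocyte marker Ly6c2 (1.22, and 1.81 in TPM) was higher. Cd14 (-1.31) was lower on the main scale and short of 2-fold in TPM (-0.66).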

How the data were processed

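RNA of CD8 T cells sorted from B16 tumours was sequenced from 1 library per genotype, each deposited as 4 lanes. Per the submitters' processing notes, kallisto and build GRCm38.p6 were used, and DESeq2 is named. Their versions and the annotation release are not stated there. Estimated counts were deposited without normalisation. TPM, as deposited, is scaled for transcript length and lane total.

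Estimated counts were summed over transcripts and lanes and rounded. TMM factors (edgeR 4.0.16, R 4.3.3) over all genes were 1.07 for CD36_KO and 0.934 for WT. Intervals (95%) are exact Clopper-Pearson intervals of a gene's share of counts in 1 library, and for ratios of genes exact conditional intervals of the odds ratio (scipy 1.17.1). The 2-fold rule needs a mean of at least 5 CPM, a log2 ratio of at least 1 in size and an interval that excludes 0. TPM ratios use a pseudocount of 1, which understates changes of low genes, and no interval. No p-value is given, since lanes are not replicates of a genotype: the chi-square per degree of freedom of gene counts was 1.26 over CD36_KO lanes, 1.29 over WT lanes and 19.7 for a CD36_KO beside a WT lane. The intervals and the 2-fold rule were tested on simulated counts with counting error alone. Scaling factors, TPM ratios, gene pairs and the promoter search were not tested in that way.

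Coordinates are from GENCODE M21, which matched 99.7% of gene identifiers with versions ignored. The 9 genes and the 18 lists (7 of pathways, 11 of markers) were chosen with earlier results of these data known. Named genes are up to 4 per pathway list and 3 per marker list ranked by size of log2 ratio, each list's most abundant marker, and the 2 genes averaging 20 CPM or more nearest in ratio to the highest and lowest gene; not all are printed, and some are not reported here. Thy1, Clu, Ly6c2 and Rmc1 fall outside this rule and were named after their values were seen, as were the gene pairs compared. Alternatives covered scaling, TPM, rounding, the CPM minimum and lanes left out.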

Additional observations from a re-analysis of the deposited data

Results flagged for a closer look

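Of 36 groups of 4 lanes checked (9 genes, CPM and TPM, 2 libraries), 6 had a lane that stood apart from the other lanes of its library. Chance gives about 1 in 20 such groups, and CPM and TPM of a gene share reads. In CPM, Abcg1 stood at 284.6 in CD36_KO lane 4, beside 294.9 to 295.1 in the other lanes. Lrp1 stood at 1554 in WT lane 3, beside 1515 to 1521, and Npc2 at 228.5 in WT lane 2, beside 207.6 to 209.7. In TPM, Nr1h2 stood at 17.59 in WT lane 4, beside 12.66 to 13.39. Lrp1 stood at 56.74 in CD36_KO lane 3, beside 50.15 to 51.01, and Npc2 at 46.24 in CD36_KO lane 4, beside 41.1 to 41.55. Different lanes were involved, and leaving out any of them changed no direction of these genes on the main scale. Lanes were not left out in TPM, where the overlaps of Nr1h2 and Lrp1 each rest on the flagged lane. Without WT lane 4, Nr1h2 stood at 12.66 to 13.39 TPM in WT, below the 14.84 to 16.5 TPM of CD36_KO. Without CD36_KO lane 3, Lrp1 stood at 50.15 to 51.01 TPM in CD36_KO, below the 51.92 to 62.92 TPM of WT.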

How the results depend on the processing

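The number of the 9 genes at least 2-fold higher, 0 on the main scale, was 1 (Mylip) with total counts, upper-quartile factors, TMM factors over protein-coding genes, and TPM with a pseudocount of 1, of 0.1, or over protein-coding transcripts. Mylip was then at 1.11, 1.06, 1.01, 1.33, 1.52 and 1.14, and 0.924 with DESeq2 size factors. Above the all-gene median it stood at 0.907 to 1.14 in all 18 alternatives. With each lane left out in turn the count ranged from 0 to 0 and Mylip from 0.886 to 0.995. No gene was at least 2-fold lower in any alternative. The Apoe ratio, -0.09 on the main scale, was positive in 6 of the 18 alternatives. Its interval spanned 0 with any 1 of the WT lanes left out, for example -0.09 to 0.07 without WT lane 2. The median of the 9 genes, -0.30, was 0.14 with TPM and 0.17 with a TPM pseudocount of 0.1, and ranged from -0.37 to -0.23 with lanes left out. Over the 12177 measured genes, 1501 (12.3%) were higher and 329 (2.7%) lower with TPM and a pseudocount of 1. The split was 2291 and 490 with the pseudocount of 0.1, and 818 and 964 over protein-coding transcripts. With total counts it was 1114 and 940, with upper-quartile factors 1038 and 1016, and with TMM factors over protein-coding genes 919 and 1117. It was 2381 and 2471 with no CPM minimum, and 344 and 679 at a minimum of 20 CPM, which are other sets of genes. Shares of all measured genes were computed for the main scale and the TPM pseudocount of 1 only. No paired analysis was possible because each genotype has 1 library and the lane numbers name lanes, so no test was made. Depth limits Nr1h3 most, at 134 and 140 counts in CD36_KO and WT. With 1 library per genotype, differences between mice, tumours and sorts cannot be told apart from genotype.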
